A study of Mus musculus with 12 samples.

Results

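The 35 genes described here encode the chaperones and regulators of the heat shock response and of the unfolded protein response. They were taken by symbol from a deposited count table of 52550 features, and every symbol matched 1 row. They were treated as 15 cytosolic heat shock genes, which include the mitochondrial chaperonins Hspd1 and Hspe1, and 20 genes of the endoplasmic reticulum (ER) and its stress signalling. Of the 35 genes, 34 passed the filter on low counts that left 14990 features, and Atf3 did not. Ribosome-bound RNA was purified from somatosensory cortex of Fmr1−/y (Fmr1 KO) and Fmr1+/y (WT) mice at postnatal day 40, of strain FVB/C57. Both genotypes carried the Aldh1l1-TRAP transgene, an eGFP tag on ribosomes under the promoter of an astrocyte gene, and tagged ribosomes were pulled down with anti-eGFP beads. Fmr1 encodes FMRP, an RNA-binding protein that represses translation and is lost in fragile X syndrome. The series compares the RNA of cortical astroglia with and without it, in 3 knockout libraries (numbers 14, 16 and 18) and 3 wild-type libraries (numbers 13, 15 and 17). The labels do not tie each library to a separate animal, so the p-values measure the spread between libraries, which may be partly technical.

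Cytosolic chaperones of the Hsp70, Hsp90 and Hsp110 families fold new proteins and refold damaged ones, and J proteins such as Dnajb1 hand them their clients. Under proteotoxic stress the transcription factor HSF1 raises the inducible members of these families through heat shock elements in their promoters. In the ER lumen, Hspa5 (BiP), Hsp90b1 (GRP94), the lectin chaperones and the protein disulfide isomerases serve secreted and membrane proteins. The sensors PERK (Eif2ak3), IRE1 (Ern1) and ATF6 report overload of the ER and raise these chaperones through XBP1, ATF6 and ATF4. Astrocytes secrete much protein and are rich in ER.

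Sequencing depth lay between 10953947 counts (knockout library 16) and 22397234 counts (wild-type library 15). Fmr1 itself was at 4.32, 4.22 and 1.32 CPM in the knockout libraries, against 31.6, 38.4 and 37.0 CPM in the wild-type libraries, which fits the labels. CPM are counts scaled to library size with edgeR's TMM factors. The features CT010467.1, Lars2 and AY036118, on which ribosomal RNA reads are known to collect, took 35.6% (library 14) and 45.1% (library 16) of all counts among knockouts, against 0.892% in library 18 and 0.939% to 7.45% in the wild-type libraries. The 12 astrocyte markers summed to 26210 to 30305 CPM in the knockout and 26501 to 31879 CPM in the wild type. The 12 neuron markers summed to 1757 to 2519 CPM in the knockout and 1271 to 2408 CPM in the wild type, and the 9 microglia markers to 54.0 to 62.3 CPM and 56.6 to 75.5 CPM. No astrocyte, neuron or microglia marker was at 0 in a library.

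No heat shock or unfolded protein response gene passed the test between Fmr1 KO and WT. The test called 0 genes of any kind, and Fmr1 itself, at a log2 fold change of -3.53 (SE 0.41), had an adjusted p of 0.2998 with edgeR, so the absence of calls says little about the members. With the quasi-likelihood test of edgeR, 0 of the 34 tested members passed an adjusted p of 0.05, beside 0% of all 14990 genes, and every member had an adjusted p of 1.00. At an unadjusted p under 0.05 there were 0 members on either side, where all genes gave 0.734% higher and 1.03% lower in the knockout. DESeq2 called 0 of the 34 members (0.0534% of all genes), edgeR's exact test 0 (0.06% of all genes) and limma voom 0, with Hspa1b the 1 member under an unadjusted p of 0.05 in voom (2% of all genes). The authors' deposited table lists 34 of the members, with 0 past an adjusted p of 0.05 (0.573% of its features). Its lowest adjusted p among them was 0.49, for Hspa1b, and 3 members, Hspa1b, Hspb8 and Atf6, had an unadjusted p under 0.05 in the authors' deposited table (6.92% of its features).

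The fold changes of the members lay close to 0 in both compartments. The 15 cytosolic members had a median log2 fold change (knockout over wild type) of 0.022, with 9 higher and 6 lower, and the 19 tested ER members one of 0.015, with 11 higher and 8 lower. Over all genes tested the median was -0.0019, and 50.4% of them lay below 0. Single members ran from -0.497 for Hspb8 to 0.68 for Hspa1b. For 29 of the 34 members the 95% interval of the fold change lay inside a 2-fold change in either direction. The exceptions were Hspa1a, Hspa1b, Hspb8, Ern1 and Sdf2l1. Every knockout library stood above every wild-type library in 1 member, Dnajb1 (2.95% of all genes did so), and below in 0 members (3.25% of all genes).

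**Figure D1:**
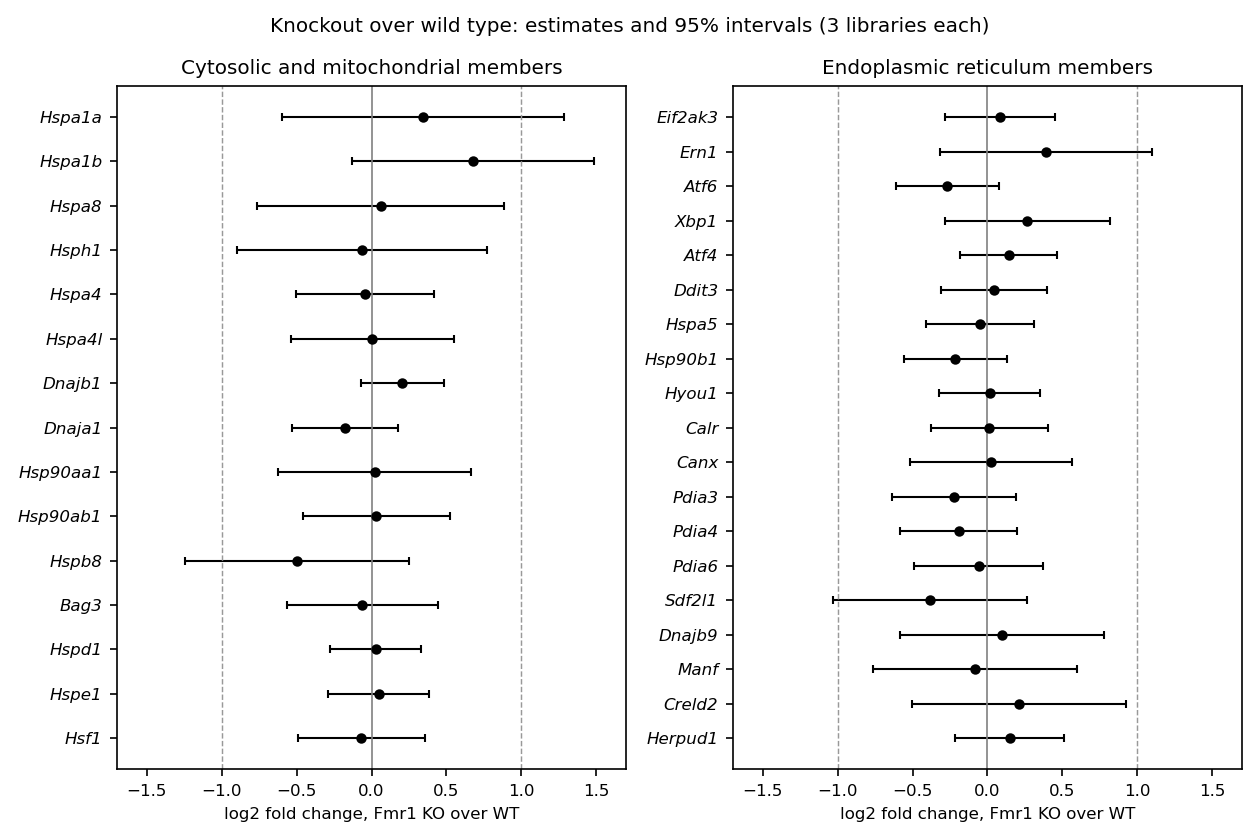
Log2 fold change of Fmr1 KO over WT for the 34 tested members (x axis; points are edgeR estimates, bars 95% intervals, 3 libraries per genotype; dashed lines mark a 2-fold change). Every interval includes 0, and 29 of 34 stay between the dashed lines.

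**Figure D2:**
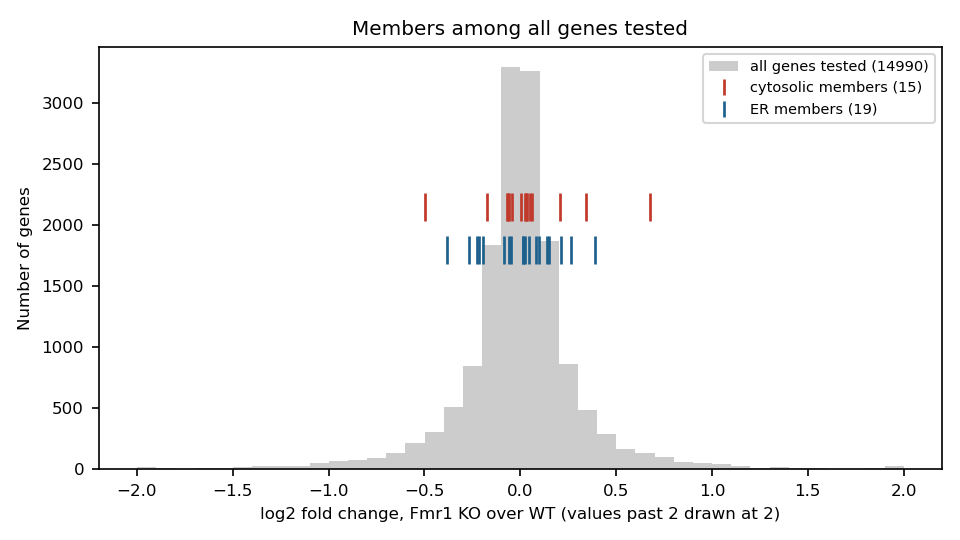
Histogram of the log2 fold change, Fmr1 KO over WT, of all 14990 genes tested (grey; y axis, number of genes; values past 2 drawn at 2), with the 15 cytosolic members (red ticks) and 19 ER members (blue ticks) at their own values. The members lie within the central mass of all genes, from -0.497 to 0.68.

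Of the heat-inducible Hsp70 genes, Hspa1a stood at 3.02, 4.79 and 6.04 CPM in knockout libraries 14, 16 and 18, against 2.13, 3.32 and 5.51 CPM in wild-type libraries 13, 15 and 17. Genotypes overlapped, with library 18 highest among knockouts and library 17 highest among wild types (log2 fold change 0.34, SE 0.41). Hspa1b, its neighbour with a near-identical coding sequence, stood at 5.71, 6.34 and 7.78 CPM in the knockout libraries, against 2.55, 6.32 and 3.56 CPM in the wild-type libraries. The lowest knockout library lay below the highest wild-type library, and the log2 fold change was 0.68 (SE 0.35, 95% interval -0.13 to 1.49; unadjusted p = 0.0902, adjusted p = 1.00 in the edgeR quasi-likelihood test). Hspa1b had the smallest unadjusted p of all members, and its value rests on few counts, 45.02 to 201 per library. Its log2 fold change was 1.12 without wild-type library 15 and 0.43 without wild-type library 13, and 0.297 on library totals without TMM, where the median of all genes was -0.44. The unadjusted p without library 15 was 0.00908 (adjusted p = 1.00 in the edgeR quasi-likelihood test), where 1.75% of all genes were under 0.05.

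Reads shared by Hspa1a and Hspa1b were divided between them by the authors' counting, so the split is uncertain. Hspa1a took from 34.4% of the pair's counts in wild-type library 15 to 60.9% in wild-type library 17. The genes lie 10120 bases apart on chromosome 17, and even their promoter windows share 296 of 300 bases. Counted as 1 feature, the pair stood at 8.73, 11.1 and 13.8 CPM in the knockout libraries, against 4.64, 9.64 and 9.07 CPM in the wild-type libraries. The genotypes overlapped, wild-type library 13 was lowest, and the pair's log2 fold change was 0.53 (SE 0.31; unadjusted p = 0.125, adjusted p = 1.00 in the edgeR quasi-likelihood test).

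The constitutive Hsp70 gene Hspa8, which folds and disassembles protein complexes in unstressed cells, varied widely within each genotype. It stood at 862, 1019 and 1837 CPM in knockout libraries 14, 16 and 18, against 802, 986 and 1778 CPM in wild-type libraries 13, 15 and 17. One library of each genotype, 18 and 17, was high and the others were close together, so that the means were 1239 ± 523 CPM over the knockout libraries and 1189 ± 519 CPM over the wild-type ones (SD, n = 3 each). The highest library exceeded the lowest 2.13-fold in the knockout and 2.22-fold in the wild type. The log2 fold change between genotypes was 0.0602 (SE 0.36).

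The Hsp110 genes, nucleotide exchange factors for Hsp70, also differed more between libraries than between genotypes. Hsph1 stood at 92.7, 69.7 and 145 CPM in the knockout libraries, against 58.7, 116 and 148 CPM in the wild-type libraries. Its lowest libraries were 16 among knockouts and 13 among wild types, and its highest 18 and 17 (log2 fold change -0.066, SE 0.36). Hspa4 measured 128 ± 21.5 CPM over the knockout libraries and 132 ± 28.2 CPM over the wild-type ones, and Hspa4l 111 ± 22.2 CPM over the knockout libraries and 111 ± 30.5 CPM over the wild-type ones (SD, n = 3 each). Both were lowest in library 16 and library 13 of their genotypes and highest in 18 and 17.

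The Hsp90 genes, which finish the folding of kinases and receptors, also overlapped between the genotypes. Hsp90aa1, the inducible form, stood at 309, 248 and 435 CPM in the knockout libraries, against 211, 369.9 and 396 CPM in the wild-type libraries. Knockout library 18 and wild-type library 17 were again highest (log2 fold change 0.022, SE 0.28). Hsp90ab1, the constitutive form, stood at 590.2, 496 and 798 CPM in the knockout libraries, against 496, 709 and 636 CPM in the wild-type libraries. Among the wild-type libraries Hsp90ab1 was highest in library 15, not 17 (log2 fold change 0.033, SE 0.21).

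The J proteins deliver clients to Hsp70. Dnajb1, the HSF1-responsive J protein, stood at 42.6, 40.3 and 44.03 CPM in the knockout libraries, against 35.6, 35.7 and 38.8 CPM in the wild-type libraries. Its knockout libraries all lay above its wild-type libraries, with the lowest knockout 40.3 CPM and the highest wild type 38.8 CPM. The log2 fold change of Dnajb1 was 0.21 (SE 0.12, 95% interval -0.071 to 0.48; adjusted p = 1.00 in the edgeR quasi-likelihood test), with an exact permutation p of 0.1, the lowest value possible with 3 libraries per genotype. On library totals without TMM, where the median of all genes was -0.44, the log2 fold change of Dnajb1 was -0.22. Dnaja1, a J protein with a farnesyl anchor, measured 125 ± 4.63 CPM over the knockout libraries and 141 ± 22.5 CPM over the wild-type ones (SD, n = 3 each; log2 fold change -0.18, SE 0.15), with its wild-type values on both sides of the knockout ones.

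**Figure D3:**
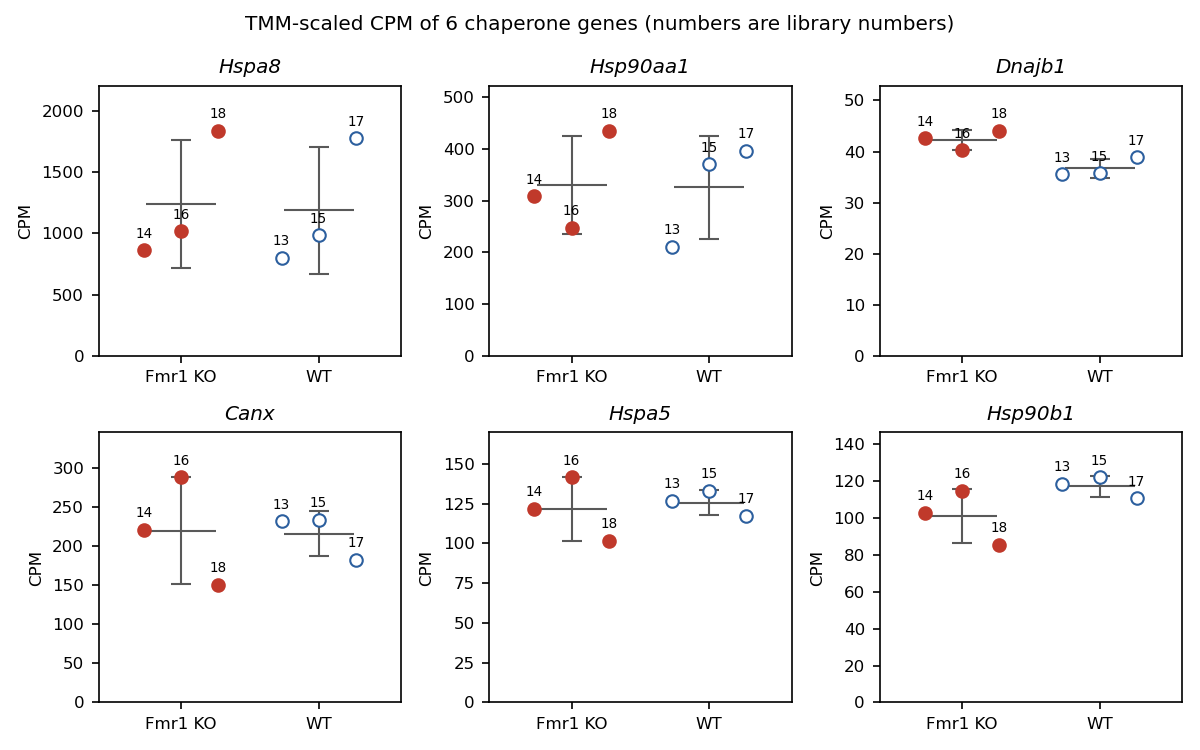
TMM-scaled CPM (y axis) of Hspa8, Hsp90aa1, Dnajb1, Canx, Hspa5 and Hsp90b1 in the Fmr1 KO libraries (filled) and the WT libraries (open), labelled by library number, with mean and SD (n = 3 each). Hspa8 and Hsp90aa1 are highest in libraries 18 and 17, Canx is lowest in them, and only Dnajb1 shows no overlap between genotypes.

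Hspb8, a small heat shock protein that works with Bag3 in chaperone-assisted autophagy, stood at 38.5, 28.3 and 41.1 CPM in the knockout libraries, against 40.2, 32.3 and 80.4 CPM in the wild-type libraries. Wild-type library 17 stood far above the other 5 libraries, and the log2 fold change of -0.497 (SE 0.33) rests on it. Without that library the log2 fold change of Hspb8 was -0.0048. Bag3 measured 14.2 ± 4.05 CPM over the knockout libraries and 14.9 ± 0.989 CPM over the wild-type ones (SD, n = 3 each), with knockout library 18 above and knockout libraries 14 and 16 below all wild-type libraries. The master regulator Hsf1, whose protein is controlled mostly after translation, measured 18.6 ± 2.27 CPM over the knockout libraries and 19.5 ± 3.29 CPM over the wild-type ones (log2 fold change -0.069, SE 0.18).

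The mitochondrial chaperonins Hspd1 (Hsp60) and Hspe1 (Hsp10), which form a folding chamber together, varied little. Hspd1 stood at 115, 104 and 119 CPM in the knockout libraries, against 107, 105 and 119 CPM in the wild-type libraries. Hspe1 stood at 210.3, 239.9 and 207 CPM in the knockout libraries, against 240.00, 206 and 189 CPM in the wild-type libraries. The fold changes were 0.027 (SE 0.13) for Hspd1 and 0.048 (SE 0.15) for Hspe1 on the log2 scale, and within a genotype no library exceeded another by more than 1.27-fold for either gene. The pair is transcribed head to head from 1 region of chromosome 1, where the RefSeq gene records overlap by 96 bases.

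Heat shock elements, the binding sites of HSF1, are shown here for the cytosolic members whose promoter window holds one. Promoter windows (300 bases around the start of the gene, RefSeq, GRCm38.p6, the build that mm10 names) were given for 11 of the 15 cytosolic members, and not for Hspa8, Hsp90aa1, Hsp90ab1 and Hsf1. The motif searched was GAA, TTC and GAA with 2 free bases between them, or its alternate phase TTC, GAA and TTC with the same spacing, on both strands. It was found in the windows of Hsph1, Hspd1 and Hspe1, 3 of 11 genes, against 0.662% of all 27025 genes with a window. The windows shown lie at chr5:149636266-149636565 on the minus strand for Hsph1 and chr1:55087898-55088197 on the plus strand for Hspe1, and capitals mark the motif. In the Hspe1 window both phases overlap, and the Hspd1 window reads the same stretch from the other strand.
Hsph1: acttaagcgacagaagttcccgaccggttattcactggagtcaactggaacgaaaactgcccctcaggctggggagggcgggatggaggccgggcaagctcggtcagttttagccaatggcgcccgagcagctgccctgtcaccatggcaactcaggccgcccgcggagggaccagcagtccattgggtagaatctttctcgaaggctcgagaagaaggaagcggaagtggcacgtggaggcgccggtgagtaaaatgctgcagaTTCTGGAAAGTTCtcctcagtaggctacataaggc
Hspe1: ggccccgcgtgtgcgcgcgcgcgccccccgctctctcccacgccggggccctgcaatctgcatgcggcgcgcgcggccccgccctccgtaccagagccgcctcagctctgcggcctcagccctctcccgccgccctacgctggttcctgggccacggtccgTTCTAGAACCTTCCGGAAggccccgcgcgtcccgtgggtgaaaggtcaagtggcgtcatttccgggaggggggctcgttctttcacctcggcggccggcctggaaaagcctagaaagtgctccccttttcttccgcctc
Hsph1 varied 2.53-fold among the wild-type libraries and Hspe1 1.27-fold. Whether the motif bears on these levels was not tested. No match elsewhere says only that these letters are not in that window.

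Among the ER stress sensors, Eif2ak3 (PERK), the kinase that slows translation, measured 13.001 ± 0.721 CPM over the knockout libraries and 12.2 ± 0.654 CPM over the wild-type ones (SD, n = 3 each; log2 fold change 0.084, SE 0.16). Ern1 (IRE1), the endoribonuclease that splices Xbp1 RNA, stood at 5.95, 5.63 and 3.68 CPM in the knockout libraries, against 3.02, 4.898 and 3.597 CPM in the wild-type libraries. Knockout libraries 14 and 16 were above every wild-type library and knockout library 18 was not (log2 fold change 0.39, SE 0.31). Libraries 14 and 16 are those with 35.6% and 45.1% ribosomal RNA features. With that share as a covariate the log2 fold change of Ern1 was -0.034, and without libraries 14 and 16 it was -0.038. Both estimates lean on knockout library 18 and cannot separate genotype from that library. Atf6, a membrane-held transcription factor, stood at 25.04, 22.8 and 27.97 CPM in the knockout libraries, against 26.9, 33.7 and 31.1 CPM in the wild-type libraries. Its knockout libraries were mostly lower, and knockout library 18 overlapped the wild type (log2 fold change -0.27, SE 0.15, 95% interval -0.61 to 0.074; exact permutation p = 0.2).

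None of the transcription factors of the pathway passed the test, where 0% of all genes did. Xbp1 stood at 28.8, 39.6 and 23.7 CPM in the knockout libraries, against 29.7, 27.8 and 18.7 CPM in the wild-type libraries. Knockout library 16 was highest and wild-type library 17 lowest (log2 fold change 0.26, SE 0.24). With the share of ribosomal RNA features as a covariate the log2 fold change of Xbp1 was -0.101, an estimate that leans on knockout library 18. Splicing of Xbp1 RNA cannot be read from gene counts. Atf4 measured 179.5 ± 19.7 CPM over the knockout libraries and 163 ± 10.8 CPM over the wild-type ones and its target Ddit3 (CHOP), a pro-apoptotic factor, 33.3 ± 3.94 CPM over the knockout libraries and 32.4 ± 4.05 CPM over the wild-type ones (SD, n = 3 each). Atf3, an immediate early stress factor, had 3, 3 and 3 counts in the knockout libraries, against 3, 3 and 5 counts in the wild-type libraries. Scaled to library size this was 0.24, 0.42 and 0.12 CPM in the knockout libraries, against 0.13, 0.12 and 0.19 CPM in the wild-type libraries. Atf3 was therefore near the detection limit in every library, and so few counts can show neither a difference between genotypes nor its absence. The immediate early gene Fos stood at 47.4, 78.997 and 19.8 CPM in the knockout libraries, against 14.01, 12.7 and 9.76 CPM in the wild-type libraries. Junb stood at 44.9, 72.7 and 33.4 CPM in the knockout libraries, against 20.2, 15.9 and 15.8 CPM in the wild-type libraries. Both were higher in every knockout library than in every wild-type library. Of all genes, 2.95% were higher in every knockout library than in every wild-type library. Neither Fos nor Junb passed the edgeR quasi-likelihood test (adjusted p = 1.00 for each), and both were highest in library 16 and lowest in library 18 among the knockouts.

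Hspa5 (BiP), the ER Hsp70 that also restrains the sensors, stood at 122, 142 and 102 CPM in the knockout libraries, against 127, 133 and 117 CPM in the wild-type libraries. The knockout values enclosed the wild-type ones, with 16 highest and 18 lowest (log2 fold change -0.049, SE 0.16, 95% interval -0.41 to 0.31). Hsp90b1 (GRP94), the ER Hsp90, stood at 103, 115 and 85.6 CPM in the knockout libraries, against 119, 122 and 111 CPM in the wild-type libraries. Knockout libraries 14 and 18 lay below every wild-type library and knockout library 16 did not (log2 fold change -0.21, SE 0.15, 95% interval -0.56 to 0.13; exact permutation p = 0.2). Hyou1, an ER Hsp110, measured 39.8 ± 4.37 CPM over the knockout libraries and 39.3 ± 4.58 CPM over the wild-type ones (SD, n = 3 each; log2 fold change 0.015, SE 0.15).

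Of the lectin chaperones, which hold glycoproteins during folding, Canx was the more variable. Canx stood at 221, 287 and 151 CPM in the knockout libraries, against 231, 233 and 182 CPM in the wild-type libraries. Knockout library 16 exceeded knockout library 18 1.91-fold, and the wild-type values lay between them (log2 fold change 0.025, SE 0.24). Calr measured 181 ± 28.2 CPM over the knockout libraries and 179 ± 24.2 CPM over the wild-type ones (SD, n = 3 each; log2 fold change 0.012, SE 0.17).

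All 3 protein disulfide isomerases, which form and shuffle disulfide bonds, had means below the wild type without passing the test, which 0% of all genes passed. Pdia3 stood at 58.6, 76.3 and 50.9 CPM in the knockout libraries, against 76.6, 77.4 and 62.8 CPM in the wild-type libraries. Knockout libraries 14 and 18 were below all wild-type libraries and library 16 was among them (log2 fold change -0.23, SE 0.18). Pdia4 measured 30.3 ± 5.12 CPM over the knockout libraries and 34.5 ± 4.29 CPM over the wild-type ones (log2 fold change -0.19, SE 0.17) and Pdia6 43.7 ± 10.2 CPM over the knockout libraries and 45.4 ± 5.55 CPM over the wild-type ones (log2 fold change -0.0596, SE 0.19; SD, n = 3 each). Adding the share of ribosomal RNA features as a covariate moved the median log2 fold change of the ER members to -0.24 and that of the cytosolic members to 0.265. In that fit Hsp90b1 (-0.44), Canx (-0.49), Pdia3 (-0.51) and Pdia4 (-0.48) had unadjusted p-values from 0.0251 to 0.0397 in edgeR's quasi-likelihood test. The adjusted p was 0.86 each, and 5.56% of all genes were under 0.05 unadjusted. That share was 35.6% and 45.1% in knockout libraries 14 and 16 and at most 7.45% in the others. The genotype estimates of that fit therefore lean on knockout library 18 and cannot separate genotype from that library. With libraries 14 and 16 left out the ER median was -0.23 and the cytosolic median 0.29.

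The remaining ER genes act as cofactors or secreted stress proteins. Manf, a secreted trophic factor of the ER, stood at 43.9, 65.2 and 32.1 CPM in the knockout libraries, against 63.96, 50.4 and 34.4 CPM in the wild-type libraries. Its levels ran from highest in libraries 16 and 13 to lowest in libraries 18 and 17 (log2 fold change -0.083, SE 0.296). Dnajb9, the J protein that brings Hspa5 to IRE1, and Creld2, a secreted ER stress protein, had the same order within the knockout, with Dnajb9 at 22.9, 33.9 and 15.4 CPM in the knockout libraries, against 24.8, 25.6 and 16.4 CPM in the wild-type libraries and Creld2 at 8.65, 12.7 and 6.65 CPM in the knockout libraries, against 10.2, 8.097 and 5.59 CPM in the wild-type libraries. Herpud1, which aids ER-associated degradation, measured 32.7 ± 3.78 CPM over the knockout libraries and 29.5 ± 4.01 CPM over the wild-type ones (log2 fold change 0.15, SE 0.16), and Sdf2l1, part of an Hspa5 complex, 5.47 ± 1.83 CPM over the knockout libraries and 7.05 ± 0.845 CPM over the wild-type ones (log2 fold change -0.38, SE 0.28; SD, n = 3 each). Sdf2l1 had 45 to 199 counts per library, and its 95% interval ran from -1.03 to 0.27.

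ER stress response elements, through which ATF6 and XBP1 act, are shown for the ER genes whose promoter window holds one. Windows were given for 17 of the 20 ER members, and not for Atf6, Hyou1 and Manf. The motif CCAAT and CCACG with 9 free bases between them, on either strand, was found in Hspa5, Hsp90b1, Calr, Canx, Creld2 and Pdia6, 6 of 17 genes, against 0.137% of all genes with a window. The related motif ATTGG and CCACG with 1 free base between them was in the window of Herpud1 (0.0444% of all genes), and the core of the amino acid response element bound by ATF4, TTGCATCA, in those of Herpud1 and Atf3 (1.03% of all genes). None of these was found in a cytosolic member, and no heat shock element in an ER member. The windows are chr2:34771840-34772139 on the plus strand for Hspa5, chr10:86705395-86705694 on the minus strand for Hsp90b1, which holds the motif in both orientations, chr11:50325624-50325923 on the minus strand for Canx and chr8:94386179-94386478 on the plus strand for Herpud1, with motifs in capitals.
Hspa5: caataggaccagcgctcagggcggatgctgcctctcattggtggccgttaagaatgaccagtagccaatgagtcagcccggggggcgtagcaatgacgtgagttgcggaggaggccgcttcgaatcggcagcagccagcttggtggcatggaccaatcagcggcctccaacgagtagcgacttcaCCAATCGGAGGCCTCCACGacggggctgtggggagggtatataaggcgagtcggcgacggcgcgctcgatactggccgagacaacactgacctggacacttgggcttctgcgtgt
Hsp90b1: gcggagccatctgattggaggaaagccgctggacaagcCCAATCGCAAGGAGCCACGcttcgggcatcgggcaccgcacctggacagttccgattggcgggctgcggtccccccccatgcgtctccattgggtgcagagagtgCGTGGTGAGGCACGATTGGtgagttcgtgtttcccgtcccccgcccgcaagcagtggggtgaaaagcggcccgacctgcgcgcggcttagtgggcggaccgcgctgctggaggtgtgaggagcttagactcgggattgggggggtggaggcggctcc
Canx: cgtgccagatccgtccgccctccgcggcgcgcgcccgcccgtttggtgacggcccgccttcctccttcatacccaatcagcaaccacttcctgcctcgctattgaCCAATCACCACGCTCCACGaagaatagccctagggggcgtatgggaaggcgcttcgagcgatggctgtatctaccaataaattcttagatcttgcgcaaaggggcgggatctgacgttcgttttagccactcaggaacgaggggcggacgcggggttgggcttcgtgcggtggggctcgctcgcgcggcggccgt
Herpud1: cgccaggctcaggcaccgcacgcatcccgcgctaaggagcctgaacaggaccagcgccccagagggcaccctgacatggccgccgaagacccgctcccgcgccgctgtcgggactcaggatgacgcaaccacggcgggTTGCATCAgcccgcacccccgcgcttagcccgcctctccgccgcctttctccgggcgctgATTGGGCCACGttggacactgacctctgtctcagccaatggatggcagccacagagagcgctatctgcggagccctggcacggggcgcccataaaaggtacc
These 4 genes had log2 fold changes of -0.049, -0.21, 0.025 and 0.15 between Fmr1 KO and WT, none past its threshold. A match is a description of the sequence and shows no binding.

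The medians of the members varied between libraries of 1 genotype. Relative to the wild-type mean, the median of the cytosolic members was -0.056, -0.23 and 0.26 in knockout libraries 14, 16 and 18, against -0.34, 0.061 and 0.18 in wild-type libraries 13, 15 and 17 (log2). The median of the ER members was -0.045, 0.24 and -0.26 in the knockout libraries, against 0.075, 0.11 and -0.17 in the wild-type libraries. In each genotype the library with the highest cytosolic median (18 and 17) had the lowest ER median. Of the 15 cytosolic members, 13 were higher in knockout library 18 than in knockout library 16, and 12 were higher in wild-type library 17 than in wild-type library 13. Of the 19 ER members, 2 and 4 were higher in the same comparisons, while all genes gave 50.7% and 49.5%. These pairs hold the highest and lowest cytosolic median of each genotype, so high cytosolic counts follow from their choice. In knockout library 18 against 14, 12 of 15 cytosolic and 6 of 19 ER members were higher. In knockout library 14 against 16 these counts were 11 and 3, and in wild-type library 17 against 15 they were 10 and 1. All genes gave 50.0%, 52.3% and 50.2% there. In wild-type library 15 against 13, both compartments were mostly higher, with 11 of 15 cytosolic and 12 of 19 ER members. These counts describe single libraries and have no replicate check, and libraries 16 and 18 differ in ribosomal RNA share and depth.

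Neuron and oligodendrocyte markers moved with this pattern, and some other marker lists did not. Of the 9 microglia markers, 5 were higher in library 18 than in 16, and 5 in library 17 than in 13. Of the 7 mural and fibroblast markers, 5 and 3 were higher in these comparisons. All 4 markers of oligodendrocyte precursors and 4 of 5 endothelial markers were higher in both. The 12 neuron markers had medians of -0.038, -0.38 and 0.46 in the knockout libraries, against -0.685, 0.13 and 0.36 in the wild-type libraries, the same order of libraries within each genotype as the cytosolic members. All 12 neuron markers and all 8 oligodendrocyte markers were higher in library 18 than in 16 and in library 17 than in 13. The 12 astrocyte markers had medians of 0.0803, 0.21 and -0.28 in the knockout libraries, against 0.22, 0.037 and -0.39 in the wild-type libraries, with the lowest value of each genotype in the same library as that of the ER members. The oligodendrocyte markers summed to 606 to 1365 CPM in the knockout and 657 to 1144 CPM in the wild type. Whether these cells contributed the difference was not tested. The RNA came from a pull-down of tagged astrocyte ribosomes. In it, the amount of other cells' RNA carried along, cell number and RNA per cell cannot be told apart.

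**Figure D4:**
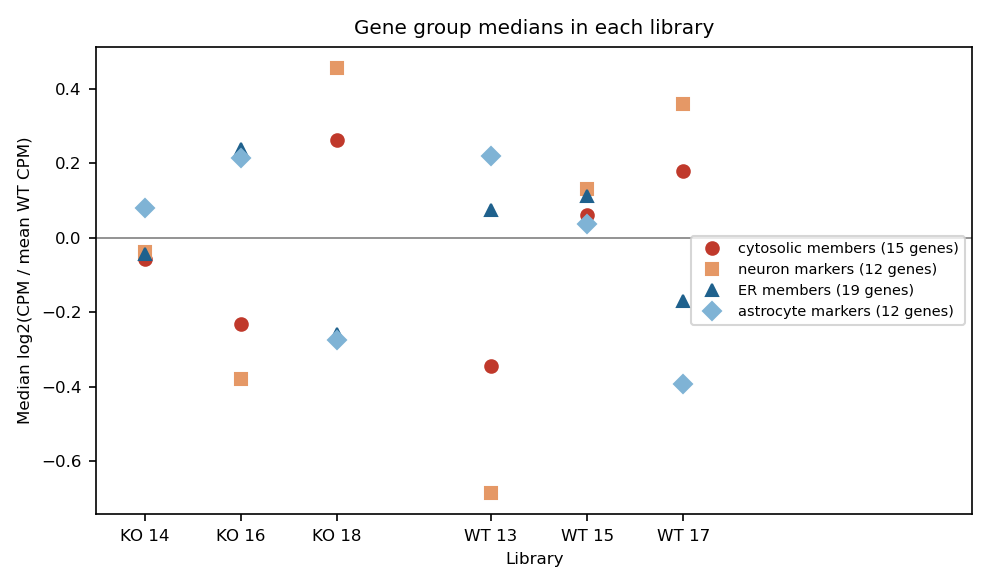
Median log2 ratio to the wild-type mean (y axis) of the 15 cytosolic members, 12 neuron markers, 19 ER members and 12 astrocyte markers in each library (x axis; Fmr1 KO 14, 16, 18, then WT 13, 15, 17). The cytosolic members lie on the side of the neuron markers in all 6 libraries, and the ER members on the side of the astrocyte markers in all but knockout library 14.

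**Figure D5:**
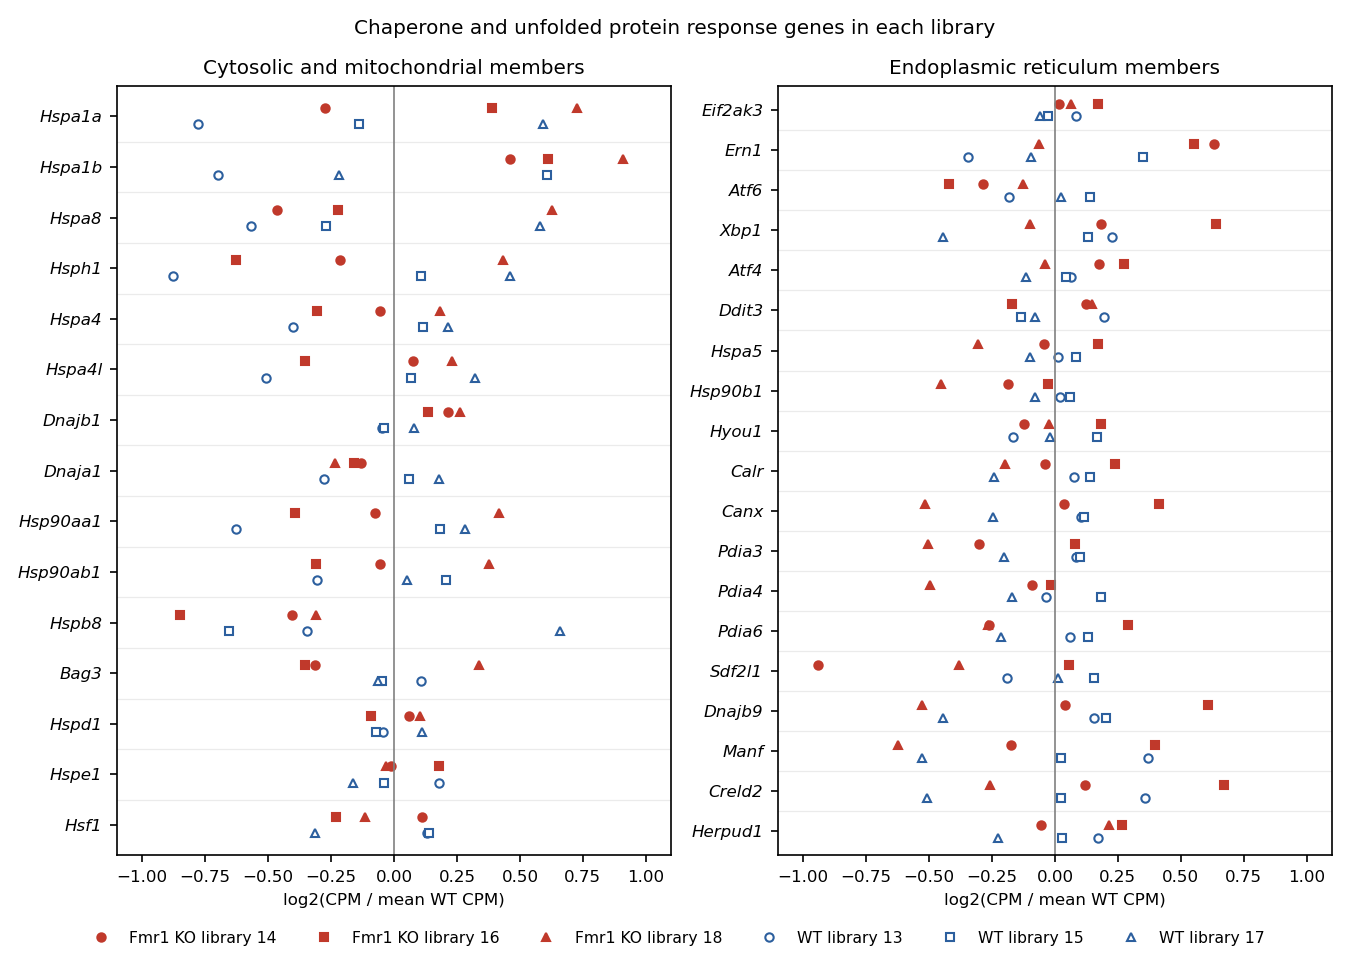
Log2 ratio of CPM to the mean WT CPM (x axis) of each tested member in the 3 Fmr1 KO libraries (filled red, upper row) and the 3 WT libraries (open blue, lower row). Hspa8, Hsph1 and Hsp90aa1 spread widely within each genotype, Hspd1 and Dnajb1 little, and the triangles (libraries 18 and 17) lie right for most cytosolic and left for most ER members.

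The signs of both medians depended on which libraries entered. The cytosolic median was -0.15 without knockout library 18 and -0.099 without wild-type library 13, against 0.145 without knockout library 16 and 0.086 without wild-type library 17. The ER median was -0.17 without knockout library 16 and -0.086 without wild-type library 17, against 0.095 without knockout library 18. The sample titles carry number pairs that begin with 5 or 6, and the labels do not say what they are. Among titles with a 5, the cytosolic median was -0.056 and -0.23 in knockout libraries 14 and 16 and -0.34 in wild-type library 13, and among titles with a 6 it was 0.26 in knockout library 18 and 0.061 and 0.18 in wild-type libraries 15 and 17. With this number as a covariate the median log2 fold change was 0.19 for the cytosolic and -0.12 for the ER members, and 0 members passed in edgeR's quasi-likelihood test. In that fit Hspa1b, at 0.93, was the 1 of 34 members with an unadjusted p under 0.05 (4.73% of all genes; adjusted p = 0.971). The neuron markers lay in the same order within each number, with -0.038 and -0.38 in knockout libraries 14 and 16 against -0.685 in wild-type library 13, and 0.46 in knockout library 18 against 0.13 and 0.36 in wild-type libraries 15 and 17.

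No gene of the wider chaperone network passed the test, where 0% of all genes did. Of the 35 other cytosolic chaperones and cochaperones, 17 were higher and 18 lower in the knockout with 0 called, and their median log2 fold change was -0.0027. The smallest p-values in that list belonged to Hspa2, an Hsp70 gene, at 66.96 ± 3.12 CPM over the knockout libraries and 79.4 ± 4.78 CPM over the wild-type ones (log2 fold change -0.25, SE 0.12), and to the polyubiquitin gene Ubb at 559.8 ± 137 CPM over the knockout libraries and 743 ± 292 CPM over the wild-type ones (SD, n = 3 each). Hspa2 was lower in every knockout library than in every wild-type library. It was the 1 gene of the 35 to be so (2.86%), against 3.25% of all genes. This network had list medians between -0.033 and 0.036 in all 6 libraries. The 8 subunits of the chaperonin TRiC, which folds actin and tubulin, had a median of 0.014 with 5 higher and 3 lower, and the smallest p-values were those of Cct4 (log2 fold change -0.11, SE 0.13) and Cct2 (log2 fold change -0.11, SE 0.14).

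None of the other ER genes passed the test, where 0% of all genes did. The 19 tested ER folding genes centred on a log2 fold change of -0.025 (median), with 9 higher and 10 lower, with the smallest p-values for the chaperone gene Cnpy2 at 27.8 ± 1.93 CPM over the knockout libraries and 35.96 ± 6.67 CPM over the wild-type ones and the thioredoxin family gene Txndc11 at 12.9 ± 0.541 CPM over the knockout libraries and 9.71 ± 2.88 CPM over the wild-type ones (SD, n = 3 each). Of 27 genes of ER-associated degradation and translocation, 15 were higher and 12 lower (median 0.0068), with Edem1 (log2 fold change 0.37, SE 0.29) and Ube2j1 (log2 fold change -0.16, SE 0.14) at the smallest p-values. The 16 further sensors and ER-bound regulators had a median of -0.011. In that list Wfs1, the ER membrane protein lost in Wolfram syndrome, was lower in every knockout library than in any wild-type library (log2 fold change -0.22, SE 0.13). Nfe2l1, a regulator of proteasome genes, was higher in every knockout library than in any wild-type library (log2 fold change 0.1996, SE 0.13). Each was the 1 gene of the 16 in its direction, where 3.25% of all genes were wholly lower and 2.95% wholly higher. No gene of these lists had an adjusted p below 1.00 with edgeR.

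Targets of ATF4 and CHOP centred on a log2 fold change of -0.016 (median) over the 29 tested of 32, with 13 higher and 16 lower. Nupr1, a stress-induced nuclear protein, was the 1 gene of the 29 at an unadjusted p under 0.05, where all genes gave 1.03% lower and 0.734% higher. It measured 28.8 ± 2.23 CPM over the knockout libraries and 38.5 ± 6.85 CPM over the wild-type ones (SD, n = 3 each; log2 fold change -0.42, SE 0.16, unadjusted p = 0.033, adjusted p = 1.00 in the edgeR quasi-likelihood test). Bbc3 (Puma), a pro-apoptotic gene, stood at 1.63, 1.83 and 1.62 CPM in the knockout libraries, against 1.36, 0.829 and 0.727 CPM in the wild-type libraries. Every knockout library of Bbc3 was above every wild-type library, at a low level (log2 fold change 0.79, SE 0.41). In this list 2 of the 29 genes were so, against 2.95% of all genes, and 0 were wholly below (3.25% of all genes). Trib3, Gdf15 and Fgf21, textbook targets of the integrated stress response, did not pass the filter on low counts, and 1 of the 32 had 0 counts in every library.

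The other lists were also compared between libraries. In knockout library 18 against 16, 1 of 19 ER folding genes and 5 of 27 degradation and translocation genes were higher, and in wild-type library 17 against 13, 4 of 19 and 4 of 27 were. In wild-type library 15 against 13, 8 of 19 and 11 of 27 were higher, where 12 of 19 ER members were. Of the 8 TRiC subunits, 7 were higher in library 18 than in 16, 8 in library 17 than in 13 and 4 in library 15 than in 13. Of the 35 other cytosolic chaperones and cochaperones, 16, 15 and 19 were higher in these comparisons. The counts were 6, 5 and 8 of the 16 further sensors and regulators, and 15, 14 and 14 of the 29 targets of ATF4 and CHOP. All genes gave 50.7%, 49.5% and 50.3%.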

How the data were processed

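Ribosome-bound RNA was sequenced in paired reads of 100 bases from strand-marking libraries depleted of ribosomal RNA, per the labels' protocols. The authors deposited RSEM expected counts, per the file headers. Per the submitters' processing notes, the tools were STAR 2.5.3a, RSEM 1.3.0 and edgeR, and the build mm10. The annotation release and the strand setting of the counting were not given there. A comparison table that the authors deposited holds log2 fold changes, p-values and a scaled signal, of which the signal was not used.

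The 12 entries are 6 libraries with 2 entries each. Over features with at least 20 counts, the median chi-square between the entries of a library was 0.467 to 0.494, against 2.93 to 18.8 between libraries of 1 group. The mean per degree of freedom was 1.17 to 2.34 within and 17.8 to 407 between libraries, so entries of a library differed somewhat more than sampling noise in some features. As their titles share a library number, each library's entries were added up, made whole by rounding, and treated as 1 sample.

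Counts were filtered with filterByExpr, scaled by TMM and tested with edgeR 4.0.16's quasi-likelihood F test (R 4.3.3; limma 3.58.1), Benjamini-Hochberg adjusted over 14990 genes, threshold 0.05, with 4 residual degrees of freedom. The SE was taken from the F statistic. The fit and DESeq2 1.42.0, the exact test and voom were tested on simulated data. The exact permutation test used log2 CPM with a prior count of 2 and is two-sided. Levels are not compared between genes, since no transcript lengths were used. Depth limits low genes, and intervals cover the spread of these libraries only.

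Members and lists were chosen with earlier results of these data known. Named are all members, Fmr1, the 2 genes of smallest p in each pathway list, and Fos and Junb beside Atf3. Motifs were searched in RefSeq promoter windows. Alternatives changed scaling, test, filter, covariates and libraries.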

Additional observations from a re-analysis of the deposited data

How the results depend on the processing

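Members called numbered 0 in each of the 17 alternatives, which says little about stability, since the count over all genes was also near 0. That count, 0 in the quasi-likelihood test, was 8 with DESeq2, 9 with the exact test, 6 without a filter on low counts, 2 on library totals without TMM, 1 with the ribosomal RNA share as covariate, and between 0 and 2 when 1 library was left out. Library totals without TMM shifted the median of all genes to -0.44, which moved the cytosolic median to -0.397 and the ER median to -0.47, or 0.045 and -0.024 relative to all genes, and gave Dnajb1 -0.22, Ern1 -0.097 and Xbp1 -0.23, or 0.22, 0.34 and 0.21 relative to all genes. With the ribosomal RNA share as covariate the ER median was -0.24, Ern1 -0.034 and Xbp1 -0.101. With knockout libraries 14 and 16 left out, which leaves 1 knockout library assumed to vary like the wild type, the cytosolic median was 0.29, the ER median -0.23, Ern1 -0.038 and Xbp1 -0.073. The cause was not tested. No paired analysis was possible because the library numbers are not shared between the genotypes.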
